A study of Mus musculus with 12 samples.

Results

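Epididymal white fat, the visceral depot that lies beside the epididymis and testis, was compared between 2 arrays of Mgl2-DTR mice and 2 arrays of wild-type mice, 4 of the 12 arrays of the series. All mice were male and carried the C57BL/6N background, and every mouse, wild-type included, had received diphtheria toxin into the abdomen, 500 ng a dose at intervals of 3 days, before tissue was taken on day 10. The Mgl2-DTR group is described by the labels as depleted of CD301b+ mononuclear phagocytes, and the wild-type group as intact. Inguinal fat and liver of the same design, also 2 arrays per genotype, made up the other 8 arrays. All 22180 genes with a probe that carries a single gene symbol were members, each read on its brightest probe, and 12710 of them passed a filter on dim genes and were tested.

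Mouse cells bind diphtheria toxin poorly, so the toxin kills mainly cells that carry a transgenic receptor for it. In Mgl2-DTR mice that receptor is placed under the control of Mgl2, which encodes the lectin CD301b, a surface protein of some dendritic cells and of tissue macrophages of the alternatively activated kind. Macrophages of white fat clear dying adipocytes and store lipid and iron, and they include long-lived perivascular cells that express scavenger receptors and secrete the resistin-like protein encoded by Retnla.

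Levels are normalized log2 array signals as deposited, and a change is Mgl2-DTR minus wild-type on that scale, fitted with limma and given with its standard error (SE). Groups are called apart where both Mgl2-DTR arrays lay on the same side of both wild-type arrays. The filter level was 5.71, the median over the 12 arrays of all values of probes with a single gene symbol. A level under it may sit at background, which limits the size of a change. With 2 arrays a group, precision is low. Beyond the word mouse, the labels tie no array to an animal of its own, so a p-value here covers the spread among these samples, which may be technical. A permutation of 2 arrays against 2 cannot give an exact two-sided p below 0.333, so tests rest on the model across genes. The 4 arrays had median levels of 5.19 to 5.22. Adipocyte markers were bright on all 4, with Adipoq, which encodes adiponectin, between 10.42 and 11.11, and Wt1, a marker of visceral fat, stood at 7.26 to 7.76.

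The 4 epididymal arrays did not sort by genotype across all probes. Mgl2-DTR replicate 1 and wild-type replicate 2 were the most alike pair (Pearson's r = 0.988 across probes, which are not independent), against 0.974 within the Mgl2-DTR group and 0.979 within the wild-type group. Genes that stood at least 2 log2 units above the other 3 epididymal arrays, and above the filter level, numbered 0 on Mgl2-DTR replicate 1 and 216 on Mgl2-DTR replicate 2, against 31 on wild-type replicate 1 and 17 on wild-type replicate 2. Replicate 2 minus replicate 1 had an SD across tested genes of 0.55 in the Mgl2-DTR group and 0.51 in the wild-type group. In view of this spread, each result below is given array by array.

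In Mgl2-DTR fat, 4 macrophage genes fell at an adjusted p under 0.05, which is 0.0315% of the genes tested, and 0 genes rose (0%). They were Mgl2 itself, Retnla, Cd209g and Fcrls. At an unadjusted p under 0.05 there were 442 lower and 445 higher genes (3.48% and 3.5%). These 4 calls lean on the spread estimated over all 3 tissues, since limma on the 4 epididymal arrays alone called 0 genes, with 285 at an unadjusted p under 0.05.

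Mgl2 stood at 4.25 and 4.19 on the Mgl2-DTR arrays, against 7.46 and 7.22 on the wild-type arrays. Both Mgl2-DTR values lay well under the filter level and close to each other, and the gap between the groups was -2.97 (the higher Mgl2-DTR array minus the lower wild-type array). The change was -3.12 (SE 0.24, limma adjusted p = 0.00376), with means of 4.22 ± 0.046 in Mgl2-DTR and 7.34 ± 0.17 in wild-type fat (SD, n = 2 each). Since the receptor cassette sits at this gene, loss of the cells and a changed transcript of the altered locus cannot be told apart from Mgl2 alone. In bulk tissue, fewer cells of a type and less RNA per cell cannot be told apart either.

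Retnla, which encodes RELM-alpha, a product of alternatively activated macrophages, was at 7.90 and 6.53 on the Mgl2-DTR arrays, against 10.62 and 10.44 on the wild-type arrays. The wild-type arrays nearly coincided, whereas Mgl2-DTR replicate 2 was 1.37 below replicate 1. The change was -3.32 (SE 0.39, limma adjusted p = 0.0371), a level 9.97-fold lower in Mgl2-DTR fat.

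Cd209g, a lectin gene related to DC-SIGN, was at 3.79 and 3.84 on the Mgl2-DTR arrays, against 5.90 and 7.00 on the wild-type arrays. Both Mgl2-DTR values were below the filter level, and wild-type replicate 1 was only just above it. The change of -2.63 (SE 0.31, limma adjusted p = 0.0371) is therefore limited by that floor.

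Fcrls, a scavenger receptor-like member of the Fc receptor-like family found on resident macrophages, was at 6.11 and 5.95 in Mgl2-DTR fat, against 7.59 and 7.88 in wild-type fat. All 4 values were above the filter level and each pair was tight. Its change was -1.71 (SE 0.20, limma adjusted p = 0.0371), a level 3.26-fold lower in Mgl2-DTR fat. Without Mgl2-DTR replicate 2, limma called none of the 4 genes (454 genes at an unadjusted p under 0.05), although each kept its direction. The arrays that stood apart below are Mgl2-DTR replicate 2, for duct genes, and wild-type replicate 1, for macrophage and cell cycle genes. Without both, a single array of each genotype remained, and the changes were -2.97 (Mgl2), -2.54 (Retnla), -3.22 (Cd209g) and -1.77 (Fcrls). Wild-type replicate 2 was kept in that setting, although it carried seminal vesicle and hepatocyte genes.

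**Figure D1:**
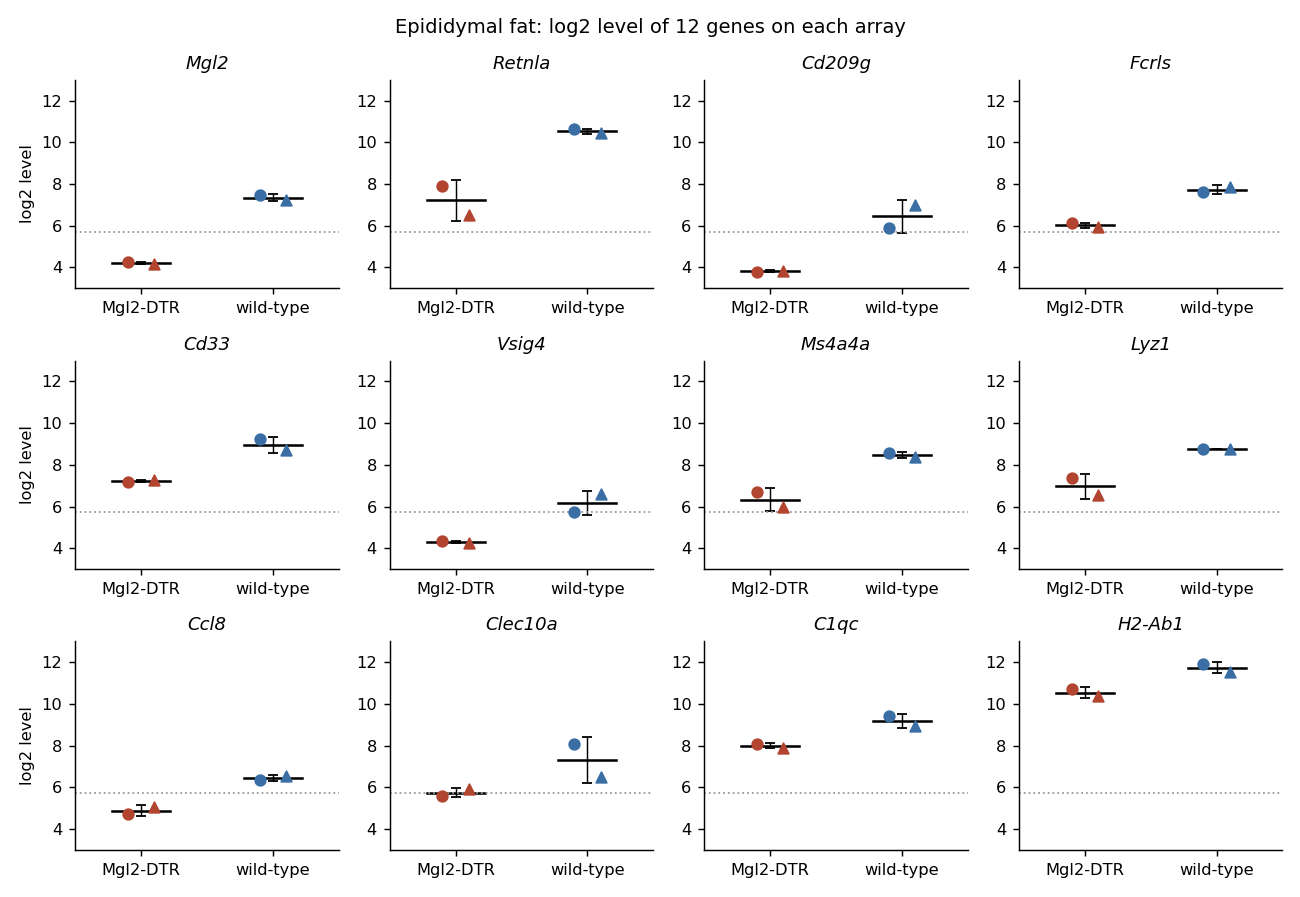
Log2 level of 12 genes in epididymal fat, with 2 Mgl2-DTR arrays (red) left of 2 wild-type arrays (blue). Circles are replicate 1, triangles replicate 2, horizontal bars the mean, error bars the SD, and the dotted line the filter level of 5.71. The groups do not overlap for any of the 12, and Clec10a has its wild-type arrays 1.57 apart.

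The promoters of the 4 called genes are shown because these genes were lower together. They come from RefSeq (GRCm38.p6), run 5′ to 3′ on the gene's strand from 250 bases before the annotated start to 50 bases from it, and all 4 were matched by symbol. Capitals mark matches, on either strand, to 3 short motifs. These are the ETS core GGAAGT, bound by PU.1 and its relatives, the CCAAT box and the TATA box TATAAA, and the STAT motif TTCNNNGAA was searched too.
Retnla, chr16:48842359-48842658, plus strand: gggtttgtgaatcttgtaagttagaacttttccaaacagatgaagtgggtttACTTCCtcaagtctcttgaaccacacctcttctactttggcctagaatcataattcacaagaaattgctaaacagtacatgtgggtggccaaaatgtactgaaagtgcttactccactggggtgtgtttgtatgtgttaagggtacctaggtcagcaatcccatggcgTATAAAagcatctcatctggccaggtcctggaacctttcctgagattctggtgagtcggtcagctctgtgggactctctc
Mgl2, chr11:70130107-70130406, plus strand: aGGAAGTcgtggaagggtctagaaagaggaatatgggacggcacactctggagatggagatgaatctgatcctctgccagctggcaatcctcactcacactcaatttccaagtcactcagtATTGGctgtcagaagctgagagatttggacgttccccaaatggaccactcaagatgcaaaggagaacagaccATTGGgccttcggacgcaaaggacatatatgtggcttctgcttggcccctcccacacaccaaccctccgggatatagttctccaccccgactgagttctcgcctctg
Cd209g, chr8:4134486-4134785, plus strand: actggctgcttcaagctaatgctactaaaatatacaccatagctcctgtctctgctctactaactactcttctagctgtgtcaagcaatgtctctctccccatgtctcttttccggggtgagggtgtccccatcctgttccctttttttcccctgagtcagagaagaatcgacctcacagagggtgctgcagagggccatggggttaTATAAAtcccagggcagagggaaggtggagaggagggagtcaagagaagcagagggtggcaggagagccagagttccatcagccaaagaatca
Fcrls, chr3:87263475-87263774, minus strand: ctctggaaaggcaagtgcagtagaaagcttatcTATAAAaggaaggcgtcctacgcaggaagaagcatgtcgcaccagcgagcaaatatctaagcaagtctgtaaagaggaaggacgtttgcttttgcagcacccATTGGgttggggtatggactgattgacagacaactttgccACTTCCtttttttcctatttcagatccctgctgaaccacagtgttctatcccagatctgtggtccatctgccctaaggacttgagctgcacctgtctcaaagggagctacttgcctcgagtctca
An ETS core was found in 3 of the 4 (Retnla, Mgl2 and Fcrls), and in 23.8% of the 32851 promoters of the table. A TATA box was found in 3 (at -30 in Retnla, -43 in Cd209g and -217 in Fcrls, counted from the start), and in 13.6% of all promoters. The CCAAT box was in Mgl2 and Fcrls and in 37.4% of all promoters, and the STAT motif was in none of the 4 and in 8.3% of all promoters. A match is a run of letters in this window and no measurement of binding.

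Below these 4, the next smallest p-values among lower genes again belonged largely to macrophage genes, and none of them passed. Cd33, a Siglec that restrains myeloid cells, was at 7.19 and 7.26 in Mgl2-DTR fat, against 9.24 and 8.70 in wild-type fat (change -1.74, limma adjusted p = 0.0764). Vsig4, a complement receptor of resident macrophages, was at 4.34 and 4.26 in Mgl2-DTR fat, against 5.75 and 6.58 in wild-type fat (change -1.87, limma adjusted p = 0.0865), with both Mgl2-DTR values under the filter level. C1qc, a chain of complement C1q, was at 8.08 and 7.90 in Mgl2-DTR fat, against 9.43 and 8.96 in wild-type fat (change -1.20, limma adjusted p = 0.0865). In all 3 the groups were apart and the Mgl2-DTR arrays were nearly equal, so the larger part of the spread was within the wild-type pair. The other C1q chains, C1qa and C1qb, had changes of -1.12 and -1.19, and the MHC class II genes H2-Ab1 and H2-Eb1, which present peptides to CD4 T cells, -1.18 and -1.11. Abca9, a lipid transporter, had a change of -1.31, Gbgt1 one of -0.97 and Slc9a9, an endosomal sodium and proton exchanger, one of -1.02. Clec10a encodes CD301a, the close relative of CD301b, and probes of such relatives may share signal, which was not tested. Its level was 5.59 and 5.92 on the Mgl2-DTR arrays, against 8.08 and 6.51 on the wild-type arrays, and its change of -1.54 did not pass (limma adjusted p = 0.689).

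Among all genes tested, both Mgl2-DTR arrays lay below both wild-type arrays for 1864 (14.7%) and above them for 1883 (14.8%), so the direction of non-overlap was balanced (29.5% were apart in either direction). A gap of at least 1 log2 unit between the groups was not balanced. It was found in 14 genes with Mgl2-DTR lower (0.11%) and 0 genes with Mgl2-DTR higher (0%). The 14 were Mgl2, Retnla, Cd209g, Ms4a4a, Fcrls, Cd33, Vsig4, Lyz1, Ccl8, Rps12-ps24, Clec4a1, Gfra2, Abca9 and F13a1. Ms4a4a, a tetraspan membrane protein of myeloid cells, was at 6.71 and 5.96 in Mgl2-DTR fat, against 8.56 and 8.38 in wild-type fat. Lyz1, a lysozyme, was at 7.38 and 6.54 in Mgl2-DTR fat, against 8.75 and 8.76 in wild-type fat. Ccl8, a chemokine made by resident macrophages, was at 4.70 and 5.07 in Mgl2-DTR fat, against 6.33 and 6.53 in wild-type fat. In each of these 3 the wild-type arrays lay within 0.20 of each other, although those arrays differed widely in other macrophage genes. Their adjusted p-values were 0.710, 0.317 and 0.317 (limma). F13a1, the A chain of coagulation factor XIII, was at 8.16 and 8.07 in Mgl2-DTR fat, against 9.18 and 9.75 in wild-type fat. Rps12-ps24 is a ribosomal protein pseudogene whose signal may come from related copies, so its gap of -1.15 is uncertain.

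**Figure D2:**
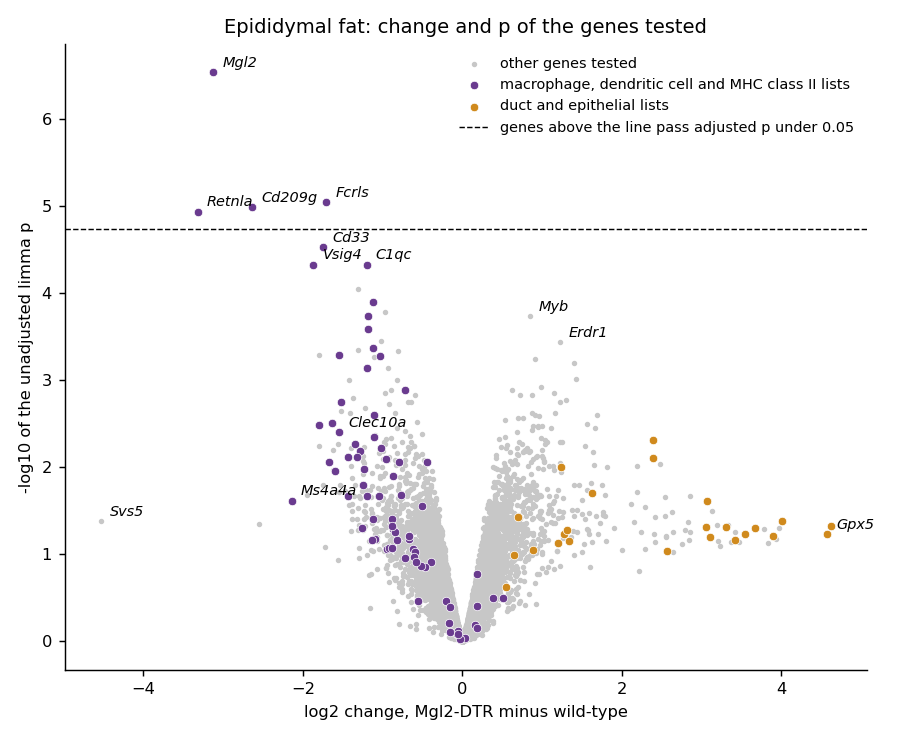
Log2 change, Mgl2-DTR minus wild-type, against the -log10 of the unadjusted limma p for the 12710 genes tested in epididymal fat. Purple points are the macrophage, dendritic cell and MHC class II lists, orange points the duct and epithelial lists, and the dashed line separates the 4 called genes, all on the left, from the rest.

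Gene lists differed in whether their genes lay lower against both wild-type arrays or mainly against wild-type replicate 1. That array was set aside with its high macrophage levels known, so smaller falls without it follow in part from the choice. Without both arrays that stood apart, each list median compares a single array of each genotype. All lists were chosen with earlier results of these data known, so their counts and medians are a description and no test. The resident macrophage list had 25 of its 26 genes on the array and 23 tested. Of these, 17 lay lower in both Mgl2-DTR arrays and 0 higher (14.7% and 14.8% of all genes did). The gap of 1 was found in 6, all lower (0.11% of all genes). The list, drawn up with earlier results known, holds 3 of the 4 called genes, Retnla, Cd209g and Fcrls (0.0315% of all genes were called). The median change was -0.72, beside 0.00 over all genes tested. Folr2, a folate receptor, was at 9.65 and 9.42 in Mgl2-DTR fat, against 11.12 and 10.35 in wild-type fat (change -1.20). Stab1, a scavenger receptor, was at 8.67 and 8.57 in Mgl2-DTR fat, against 9.48 and 9.20 in wild-type fat (change -0.72). Not every gene of the list lay lower. Lyve1, a hyaluronan receptor of perivascular macrophages and of lymph vessels, was at 10.26 and 10.29 in Mgl2-DTR fat, against 9.79 and 11.06 in wild-type fat. Ccl2 and Ccl7, which attract monocytes, had changes of 0.51 and 0.39 with overlapping groups. The median of the list was -0.73 without both arrays that stood apart, and between -0.81 and -0.67 when each of the 4 arrays was left out in turn.

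The pan-macrophage list held 21 tested genes, with a median of -0.96. In both Mgl2-DTR arrays 15 of them lay lower and 1 higher (14.7% and 14.8% of all genes did). Csf1r, the receptor for the growth factor that macrophages depend on, was at 9.54 and 9.29 in Mgl2-DTR fat, against 11.54 and 10.34 in wild-type fat. Adgre1, a surface receptor that marks mouse macrophages, was at 9.32 and 8.96 in Mgl2-DTR fat, against 11.22 and 9.54 in wild-type fat. Wild-type replicate 1 was the highest of the 4 arrays for 19 of the 21 genes, and without both arrays that stood apart the median was -0.27. The exception in direction was Cx3cr1, the fractalkine receptor, at 6.72 and 6.68 in Mgl2-DTR fat, against 6.58 and 6.44 in wild-type fat.

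Genes of antigen presentation and of myeloid surface families had the same lean. The list of CD301b+ and dendritic cell genes had 12 tested of 16 on the array and a median of -1.02. It had 7 genes lower in both Mgl2-DTR arrays (14.7% of all genes were). Besides Mgl2 and Clec10a it held the lectins Clec4a1, Clec4a2 and Clec4a3, with changes of -1.59, -1.43 and -1.80, and the integrin Itgax, at 7.52 and 7.09 in Mgl2-DTR fat, against 9.91 and 8.05 in wild-type fat. In contrast Cd209a, a lectin of dendritic cells, was at 8.84 and 8.88 in Mgl2-DTR fat, against 8.97 and 8.80 in wild-type fat. Zbtb46 and Ccr7, further dendritic cell genes, had changes of -0.05 and 0.18. The MHC class II list had 7 tested of 10 on the array, 5 lower and a median of -1.03. The Ms4a family had 9 tested of 13, 7 lower and a median of -1.13. Fc receptors and Siglecs had 11 tested of 15, 6 lower and a median of -0.88. Each count of lower genes here stands beside the same 14.7% of all genes. Without both arrays that stood apart these medians were -0.34, -0.72, -0.41 and -0.24 in the order given.

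Lipid-associated macrophage genes and cell cycle genes differed mainly between the wild-type arrays. Lipid-associated macrophages gather around dying adipocytes and break down their lipid. All 15 tested genes of that list had a negative change, with a median of -0.78. Of the 15, 3 lay lower in both Mgl2-DTR arrays (14.7% of all genes did). Trem2, the lipid-sensing receptor of these macrophages, was at 8.40 and 8.36 in Mgl2-DTR fat, against 10.83 and 8.51 in wild-type fat. Atp6v0d2, a subunit of the vacuolar proton pump, was at 9.24 and 9.04 in Mgl2-DTR fat, against 11.40 and 9.17 in wild-type fat. Wild-type replicate 2 thus stood close to the Mgl2-DTR arrays in both, and wild-type replicate 1 was the highest array for 14 of the 15 genes. Without both arrays that stood apart, the median was 0.06. The 19 tested cell cycle genes were all highest on wild-type replicate 1, with mean levels of 7.12 and 6.85 on the Mgl2-DTR arrays, against 8.15 and 6.63 on the wild-type arrays. Top2a, a topoisomerase of dividing cells, was at 7.15 and 6.58 in Mgl2-DTR fat, against 8.45 and 6.37 in wild-type fat. Their median was -0.42 with all arrays and 0.52 without both arrays that stood apart, so its direction turned. Iron and lysosome genes had 9 of 21 lower in both Mgl2-DTR arrays (14.7% of all genes were). Their median was -0.54, and 0.00 without both arrays that stood apart.

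The 2 wild-type arrays thus carried different macrophage profiles. Within the resident list, wild-type replicate 2 was the highest array for 13 of 23 genes and wild-type replicate 1 for 8, whereas wild-type replicate 1 was the highest for 19 of 21 pan-macrophage genes. Cd209g, F13a1, Vsig4, Cbr2 and Fcna, all resident macrophage genes, were higher on wild-type replicate 2. Cbr2, a carbonyl reductase, was at 8.88 and 9.11 in Mgl2-DTR fat, against 9.51 and 10.21 in wild-type fat. Fcna, which encodes ficolin A, was at 7.14 and 7.33 in Mgl2-DTR fat, against 7.80 and 8.26 in wild-type fat. Both Mgl2-DTR arrays lay below both of them in each case, and none of these 5 but Cd209g passed the test.

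**Figure D3:**
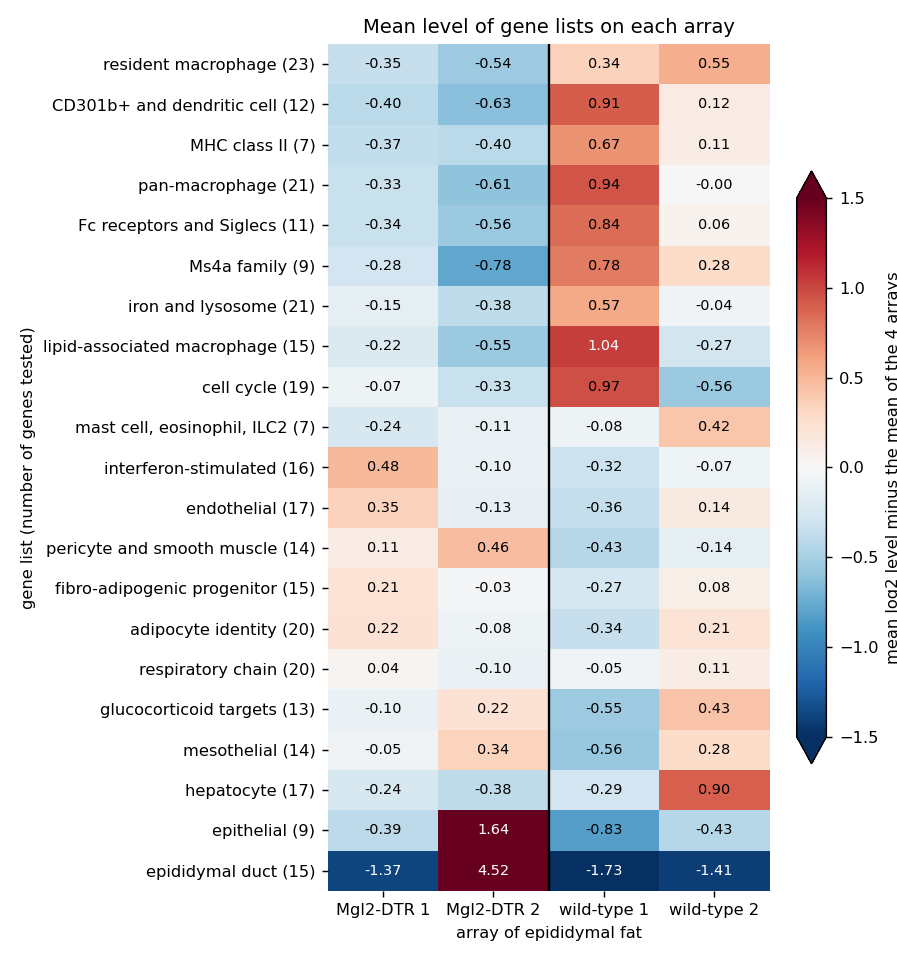
Mean log2 level of 21 gene lists on each epididymal array, minus the mean of the 4 arrays; Mgl2-DTR arrays are left of the line and wild-type arrays right of it. The resident macrophage row is negative on both Mgl2-DTR arrays and positive on both wild-type arrays, whereas the cell cycle and lipid-associated macrophage rows are positive on wild-type replicate 1 alone, and the duct row (at 4.52) on Mgl2-DTR replicate 2 alone.

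Among the mast cell genes tested, the proteases lay lower and other genes did not, and none passed the test. The list of mast cell, eosinophil and innate lymphoid cell genes had 7 tested of 18 on the array, and 4 lay lower in both Mgl2-DTR arrays (14.7% of all genes did). All 4 encode mast cell proteases: Mcpt4 (change -1.14), Tpsb2 (-0.72), Cpa3 (-0.69) and Cma1 (-0.62). Mcpt4 was above the filter level on wild-type replicate 2 alone, at 4.99 and 4.16 in Mgl2-DTR fat, against 5.47 and 5.97 in wild-type fat. Among genes that the filter left out, the protease gene Tpsab1 had overlapping groups, and the protease gene Mcpt8 lay higher with a gap of 0.12. Prg2 and Epx, also left out, lay higher with gaps of 0.0065 and 0.0236. Ms4a2, left out too and no protease gene, lay lower with a gap of -0.12. Of the 18 genes with a probe, 5 lay lower in both Mgl2-DTR arrays and 3 higher. Cpa3, carboxypeptidase A3, was at 8.02 and 7.75 in Mgl2-DTR fat, against 8.30 and 8.84 in wild-type fat. The other 3 tested genes had positive changes and overlapping groups. They were Hdc, the histamine-forming enzyme of mast cells (0.11), Gata3 (0.29) and Kit (0.36). Kit, a receptor that mast cells share with other cells, was at 7.36 and 7.62 in Mgl2-DTR fat, against 6.77 and 7.49 in wild-type fat. T-cell, B-cell, monocyte and neutrophil lists had 3 to 8 tested genes each and medians between -0.29 and 0.02. Of 6 tested monocyte and neutrophil genes 3 lay higher in both Mgl2-DTR arrays and 1 lower. For T and NK cells it was 3 higher and 2 lower of 8, and for B cells 0 higher and 1 lower of 3. Over all genes the shares were 14.8% higher and 14.7% lower.

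On the side of higher genes, none passed and none had a gap of 1. The smallest p-values were those of Myb, Erdr1, Dcdc2a, Dao and Cabcoco1. Myb, a transcription factor of blood progenitors, was at 6.31 and 6.21 in Mgl2-DTR fat, against 5.25 and 5.57 in wild-type fat (change 0.85, limma adjusted p = 0.198), and on its next brightest probe the change was -0.016. Erdr1 was at 9.54 and 10.00 in Mgl2-DTR fat, against 8.83 and 8.26 in wild-type fat (change 1.22, limma adjusted p = 0.312). Dcdc2a was at 7.11 and 6.75 in Mgl2-DTR fat, against 5.10 and 5.96 in wild-type fat, and Dao, D-amino acid oxidase, at 6.79 and 6.96 in Mgl2-DTR fat, against 4.87 and 6.03 in wild-type fat. In the last 2, as in Epb41l4a, Cdhr5, Cfi and Apod, wild-type replicate 1 was the lowest array. Bmp3, a bone morphogenetic protein made by adipose stroma, averaged 8.71 ± 0.40 in Mgl2-DTR fat and 7.83 ± 0.24 in wild-type fat (SD, n = 2 each; change 0.88, limma adjusted p = 0.594). Apod, a lipid-binding protein, was at 9.29 and 10.23 in Mgl2-DTR fat, against 7.34 and 8.79 in wild-type fat.

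Interferon-stimulated genes were higher on balance, led by Mgl2-DTR replicate 1. Of 16 tested genes 15 had a positive change, with a median of 0.40. In both Mgl2-DTR arrays 8 lay higher and 0 lower (14.8% and 14.7% of all genes did). Usp18, which damps interferon signalling, was at 8.53 and 7.68 in Mgl2-DTR fat, against 7.20 and 7.48 in wild-type fat. Stat2, a transcription factor of the pathway, was at 9.20 and 8.84 in Mgl2-DTR fat, against 8.40 and 8.58 in wild-type fat. Mgl2-DTR replicate 1 was the highest array for 15 of the 16, no gene of the list passed over all genes, and the median was 0.18 without that array and 0.71 without Mgl2-DTR replicate 2.

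Few adipocyte genes lay apart between the genotypes in this bulk tissue, and precision was too low to exclude a difference. Of 20 tested adipocyte genes 0 lay lower in both Mgl2-DTR arrays and 1 higher (14.7% and 14.8% of all genes did). Their median was 0.13. That median turned direction, to -0.02 without Mgl2-DTR replicate 1 and to -0.12 without wild-type replicate 1. Adipoq was at 11.11 and 10.65 in Mgl2-DTR fat, against 10.42 and 11.03 in wild-type fat, and Lep, which encodes leptin, at 12.53 and 12.11 in Mgl2-DTR fat, against 11.92 and 12.25 in wild-type fat. The gene that lay higher was Nnat, at 11.29 and 11.33 in Mgl2-DTR fat, against 9.87 and 11.12 in wild-type fat. Lipolysis genes had 0 of 17 apart in either direction, and fatty acid synthesis genes 1 of 21 (29.5% of all genes were apart). Plin2, which coats lipid droplets in macrophages as well as adipocytes, was at 11.26 and 10.97 in Mgl2-DTR fat, against 12.49 and 11.21 in wild-type fat. Insulin and glucose genes had 3 of 22 higher and 1 lower, shares no larger than those of all genes tested (14.8% and 14.7%), and their median of 0.21 was -0.09 without wild-type replicate 1. The higher ones included Irs2, an insulin receptor substrate, at 9.27 and 9.25 in Mgl2-DTR fat, against 8.26 and 9.04 in wild-type fat. The gene that lay lower was Igf1, a growth factor that macrophages also make, at 10.40 and 9.80 in Mgl2-DTR fat, against 10.49 and 10.72 in wild-type fat. Respiratory chain genes had changes between -0.25 and 0.25.

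In vessel and stromal lists no gene passed the test, and some medians turned direction with 1 array left out. Endothelial genes had a median of 0.21 with 16 of 17 positive. Among them only Tie1 lay apart (29.5% of all genes did), and 15 were highest on Mgl2-DTR replicate 1. Their median was -0.07 without that array and -0.03 without wild-type replicate 1. Pericyte and smooth muscle genes had a median of 0.39, and 6 of 14 lay higher in both Mgl2-DTR arrays (14.8% of all genes did). Actg2 and Cnn1, which mark smooth muscle, led this list through Mgl2-DTR replicate 2, with Actg2 at 4.77 and 9.25 in Mgl2-DTR fat, against 4.46 and 4.46 in wild-type fat. Fibro-adipogenic progenitor genes had a median of 0.21, which was -0.02 without Mgl2-DTR replicate 1, and matrix genes one of -0.02.

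Genes of neighbouring organs stood out on 2 of the arrays. Mgl2-DTR replicate 2 carried genes of the epididymal duct: of 30 duct genes with a probe, 28 were highest there and 2 on wild-type replicate 2, and their mean level was 4.24 and 9.40 on the Mgl2-DTR arrays, against 4.07 and 4.31 on the wild-type arrays. Gpx5, a secreted peroxidase of the duct, was at 3.59 and 12.74 in Mgl2-DTR fat, against 3.53 and 3.64 in wild-type fat. Of the 30, 15 passed the filter. Some of these were also above the filter level on the other 3 arrays, such as Clu, which encodes clusterin, at 10.10 and 11.41 in Mgl2-DTR fat, against 9.26 and 9.78 in wild-type fat. All 13 epithelial genes with a probe, of which 9 passed the filter, were also highest on Mgl2-DTR replicate 2.

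Wild-type replicate 2 carried genes of the seminal vesicle, a gland that lies near the same fat. This list was chosen after the values were seen. Svs5 was at 3.34 and 3.70 in Mgl2-DTR fat, against 3.91 and 12.19 in wild-type fat, and Svs4 at 3.44 and 3.51 in Mgl2-DTR fat, against 3.63 and 11.25 in wild-type fat. All 8 genes with a probe (Svs1, Svs2, Svs3a, Svs3b, Svs4, Svs5, Svs6 and Sva) were highest there, at 6.34 to 12.19, and the other 3 arrays had means of 2.98 to 3.22 over the 8. Ceacam10, which the seminal vesicle secretes, was at 4.35 and 10.45 in Mgl2-DTR fat, against 4.17 and 10.60 in wild-type fat, and was thus high on both arrays that carried male accessory tissue genes. Hepatocyte genes were highest on wild-type replicate 2 too, for 14 of 17 genes, with means of 5.41 and 5.28 on the Mgl2-DTR arrays, against 5.37 and 6.55 on the wild-type arrays beside 5.74 to 6.30 in inguinal fat and 11.86 or more in liver. Alb, which encodes albumin, was at 7.13 and 6.28 in Mgl2-DTR fat, against 6.51 and 9.50 in wild-type fat. The part of these tissues in the macrophage results was not tested. With all arrays in, the gaps of the 4 called genes were -2.97 (Mgl2), -2.54 (Retnla), -2.05 (Cd209g) and -1.48 (Fcrls).

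**Figure D4:**
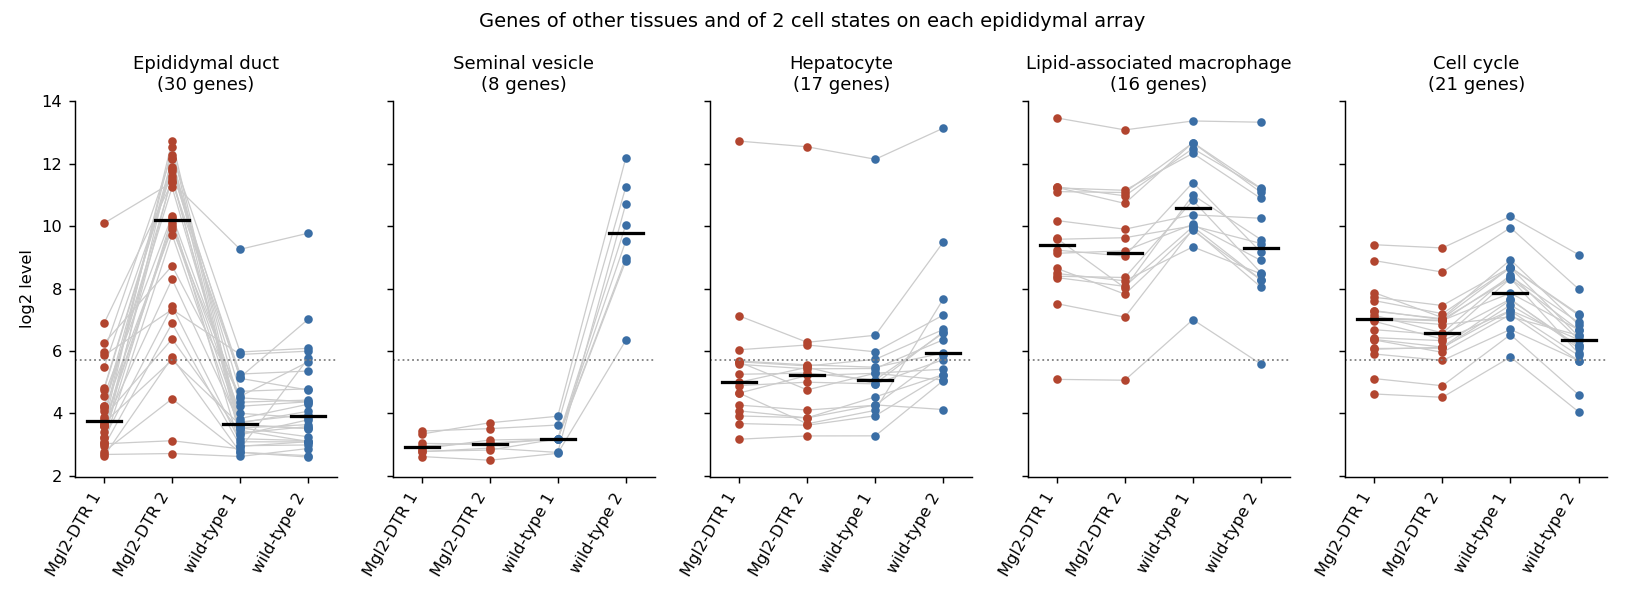
Log2 level of genes of the epididymal duct, seminal vesicle, hepatocytes, lipid-associated macrophages and the cell cycle on the 4 epididymal arrays, Mgl2-DTR (red) left of wild-type (blue). Grey lines join the values of a gene, black bars are medians and the dotted line is the filter level of 5.71. Duct genes stand out on Mgl2-DTR replicate 2, seminal vesicle and hepatocyte genes on wild-type replicate 2, and both macrophage and cell cycle panels peak on wild-type replicate 1.

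Most of the genes named as lower in epididymal fat were lower in inguinal fat too, and the share over all genes was not counted. Of 18 genes named for the smallest p or largest gap among lower genes, 17 had a negative change in inguinal fat, and in 13 it was larger there. Retnla had a change of -3.32 in epididymal fat, against -4.86 in inguinal fat, Cd209g -2.63 against -4.28, Ccl8 -1.55 against -3.37, and Mgl2 -3.12 against -2.80. In inguinal fat Retnla was at 5.88 and 6.09 on the Mgl2-DTR arrays, against 10.72 and 10.97 on the wild-type arrays, so the wild-type levels of the depots were close and the Mgl2-DTR level was higher in epididymal fat. Tests of the difference between the depots' changes gave limma adjusted p-values of 0.995 for each of these 4 genes, and called 0 of the 12710 genes (234 lower and 130 higher in epididymal fat at an unadjusted p under 0.05, 1.84% and 1.02%). Rps12-ps24 was the exception of the 18, with a change of 0.06 in inguinal fat. Of the 21 genes named among the higher ones, 15 had a positive change in inguinal fat, among them Apod at 1.06 and Bmp3 at 1.01, whereas Myb was at -0.66. Against liver, where Mgl2 was below the filter level at 4.03 to 4.59 on every array, 0 genes differed in their change at an adjusted p under 0.05 (507 lower and 380 higher in epididymal fat at an unadjusted p under 0.05, 3.99% and 2.99%). The resident macrophage list had a median change of -0.72 in epididymal fat, -0.88 in inguinal fat and 0.30 in liver. The interferon-stimulated list had medians of 0.40, 0.50 and 0.40 in the same order.

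**Figure D5:**
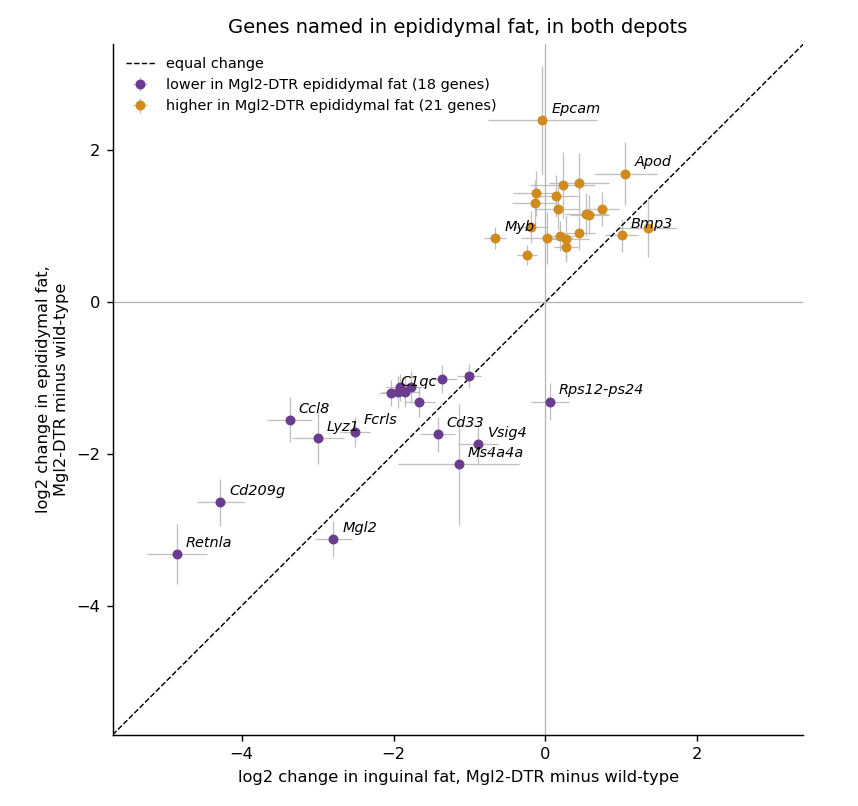
Log2 change in epididymal fat (vertical) against that in inguinal fat (horizontal), each Mgl2-DTR minus wild-type with its SE as bars, for 18 genes named as lower and 21 named as higher in epididymal fat. The lower genes fall in the lower left quadrant with the exception of Rps12-ps24, and Retnla, Cd209g and Ccl8 lie to the left of the dashed line of equal change.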

How the data were processed

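RNA of 12 samples was hybridised to Affymetrix mouse gene arrays, 2 per tissue and genotype. The values are log2 signals that the authors normalized and deposited; no source used here gives the background correction or normalization, and the submitters' processing notes name limma. Of 41345 probes, 23521 carried a single gene symbol in the platform annotation, 1814 several and 16010 none. Genes were read on the probe with the highest mean. A gene was tested where the 4 arrays of any tissue averaged over 5.71.

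limma 3.58.1 (R 4.3.3) fitted a mean per tissue and genotype over all 12 arrays (6 residual degrees of freedom), with Benjamini-Hochberg adjustment over 12710 genes. The code was tested on simulated data. Members and lists were chosen with earlier results of these data known. Named genes were Mgl2, Retnla and Clec10a, the called genes, the 15 smallest p-values each way among genes with groups apart and a change of at least 0.58, the 10 largest gaps each way, and up to 6 genes per list with the smallest p or that define the cell type. The remaining 17824 probes gave 0 calls (limma; 750 at an unadjusted p under 0.05). Alternatives covered the filter, probe choice, normalization, model and left-out arrays.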

Additional observations from a re-analysis of the deposited data

Results flagged for a closer look

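Of the genes named as lower in epididymal fat, 11 had groups that lay apart the opposite way in liver, with Mgl2-DTR higher there. The epididymal change minus the liver change was -2.86 for Cd209g, -1.99 for Fcrls, -2.40 for Cd33, -2.75 for Vsig4 and -1.81 for C1qc. It was -1.85 for Abca9, -1.44 for C1qa, -1.95 for H2-Ab1, -1.89 for C1qb, -1.45 for Slc9a9 and -1.47 for H2-Eb1. The tests of these differences gave limma adjusted p-values between 0.0614 (Fcrls, Cd33, Vsig4 and C1qc) and 0.268 (H2-Eb1), so none passed. Vsig4, for example, was at 10.26 and 10.29 in Mgl2-DTR liver, against 9.60 and 9.17 in wild-type liver. Of the 11, Cd209g and Fcrls were below the filter level on every liver array. Cd209g was at 3.923 and 4.371 in Mgl2-DTR liver, against 3.917 and 3.916 in wild-type liver, so its groups barely lay apart.

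Among higher genes, the epididymal change minus the liver change was 1.61 for Dcdc2a, 1.17 for Cabcoco1, 1.43 for Epb41l4a, 0.88 for Car7 and 1.79 for Bmp3, with limma adjusted p-values between 0.123 and 0.505. Dcdc2a, Epb41l4a and Bmp3 were below the filter level on every liver array. The epididymal change minus the inguinal change was 1.51 for Myb (limma adjusted p = 0.341), 1.18 for Cabcoco1 and 0.86 for Igsf3 (limma adjusted p = 0.995 for both). In each case the groups lay apart in opposite directions in the 2 tissues.

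Outside the genes tested, 48 genes that the filter left out were at least 4 log2 units higher on Mgl2-DTR replicate 2 than on both wild-type arrays. They include Rnase9 at 12.20, Spink11 at 11.88 and Spint4 at 11.60 on that array.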

How the results depend on the processing

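The count of 4 called genes in epididymal fat was 1 with no filter, with array weights, with the 8 fat arrays and with the replicate number as a block (1105 genes at an unadjusted p under 0.05 under the block), and Mgl2 was the gene that passed each time. It was 0 with the filter at the 75th percentile (484 at an unadjusted p under 0.05), which left Retnla (adjusted p = 0.08) as the only one of the 4 tested, and 0 in the 4 epididymal arrays alone (285), and 7 at an adjusted p under 0.10. Leaving out each array in turn gave 0 to 763 calls: 249 without Mgl2-DTR replicate 1, 0 without Mgl2-DTR replicate 2 (454 by unadjusted p), then 10 without wild-type replicate 1 and 763 without wild-type replicate 2; each lone array was taken to vary as the other groups do. The difference from inguinal fat had 0 calls, 0 to 123 with 1 array left out (123, 0, 1 and 104 in the same order) and 2 without both arrays that stood apart. The difference from liver had 0 calls, 8 with the stricter filter, 2 with the replicate block, 4 without both those arrays, 18 at an adjusted p under 0.10, and 0 to 485 with 1 array left out (186, 0, 3 and 485). The labels tie the replicate numbers to no animal or batch, and between the genotypes of epididymal fat replicate 2 minus replicate 1 correlated at 0.0529 across genes; some genes, such as the glucocorticoid targets, followed the number, and a shared factor behind it was not tested. Myb had a change of -0.016 and Slc27a2 one of -0.025 on the next brightest probe. Of 620 values of 40 named genes under the alternatives, 551 kept their direction and side of the threshold, 25 lost the call, 42 newly passed and 2 turned direction, and the cause was not tested. Of 344 list medians, 70 moved by more than the spread between replicates, and 31 of the 43 lists had a median that changed sign under some alternative. The adjusted p of Retnla ran between 0.000117 and 0.989, that of Mgl2 between 0.000747 and 0.214. Depth has no counterpart here, but 1712 tested genes had a genotype mean at or under the filter level, where a change is limited by background.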

Other observations

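On average, glucocorticoid targets were higher on the replicate 2 array of each genotype. Of 13 tested glucocorticoid targets, 11 were highest on wild-type replicate 2, with list means of 9.19 and 9.50 on the Mgl2-DTR arrays, against 8.74 and 9.71 on the wild-type arrays. Zbtb16, a glucocorticoid target, was higher on replicate 2 in both genotypes of all 3 tissues, at 9.54 and 10.11 in Mgl2-DTR epididymal fat, against 8.79 and 10.91 in wild-type epididymal fat. Stress and muscle genes were mostly highest on a single array. Of 18 tested genes of cell stress and the unfolded protein response, 12 were highest on Mgl2-DTR replicate 2, with means of 8.29 and 8.65 on the Mgl2-DTR arrays, against 8.23 and 8.39 on the wild-type arrays. Of 12 tested skeletal muscle genes, 11 were highest on wild-type replicate 2, with means of 5.50 and 5.67 on the Mgl2-DTR arrays, against 5.60 and 6.17 on the wild-type arrays.

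Gadd45b, an early response gene, had a change of -0.65 in epididymal fat and 0.83 in inguinal fat, and the difference of -1.47 did not pass (limma adjusted p = 0.341). On wild-type replicate 1, Tm4sf19 stood out, at 8.75 and 8.81 in Mgl2-DTR fat, against 11.47 and 8.69 in wild-type fat, as did Slc37a2, at 8.78 and 8.46 in Mgl2-DTR fat, against 11.32 and 8.72 in wild-type fat. Both were chosen after their values were seen.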
